A study of Mus musculus with 12 samples.

Results

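High fructose medium was compared with control medium in N9 cells, a mouse microglial cell line, that had been stimulated with lipopolysaccharide (LPS), a molecule of the bacterial surface that sets off innate immunity. The comparison used 6 of the 12 RNA sequencing libraries of the study, 3 from high fructose with LPS and 3 from control medium with LPS, and all 54532 genes of the count table. The control medium was glucose-free DMEM with dialyzed serum, to which 3 mM glucose and 5 mM fructose had been added. The high fructose medium was this medium with 15 mM fructose, and the labels do not say whether that is the final concentration or an addition to the 5 mM. The cells of all 6 libraries were held 18 h in their medium and then 6 h with LPS at 1 µg/ml. The other libraries were 3 from high glucose (15 mM) with LPS, used here to set the change beside that of another raised sugar, and 3 from control medium without LPS. Raised fructose without LPS and an osmotic control are not among these groups, so a change by fructose of the cells and a change of their response to LPS cannot be told apart. N9 is a single line grown in culture, and the labels do not say that replicates came from separate cultures, so p-values here reflect only how far these libraries spread, and that spread could be technical.

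LPS is sensed by the receptor Tlr4, which signals through 2 adaptor routes. One runs through Myd88 to NF-kB and drives cytokine genes such as Tnf and Il1b. The other runs through Ticam1 (TRIF) and the kinase Tbk1 to the transcription factor Irf3, which switches on interferon beta. Secreted interferon then acts through its receptor (Ifnar1 and Ifnar2), the kinases Jak1 and Tyk2 and a complex containing Stat2 and Irf9 that binds interferon-stimulated response elements in the promoters of antiviral genes. Fructose enters cells mainly through Slc2a5 (GLUT5), is phosphorylated by ketohexokinase (Khk), or can be phosphorylated by hexokinases.

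In total, 12766 genes had enough counts to be tested, and 302 of them (2.37%) were higher and 325 (2.55%) lower in high fructose with LPS than in control medium with LPS (edgeR quasi-likelihood test, adjusted p below 0.05). Most differences were small. At least a 2-fold rise was found for 17 genes (0.133%) and at least a 2-fold fall for 36 (0.282%), and the median size of the change among the called genes was 0.36 on the log2 scale. Among coding genes whose mean count reached 50 in 1 of the groups and whose groups did not overlap, the largest falls were led by interferon-stimulated genes such as Mx1, Ifi44, Ifit2, Ifit3, Cxcl10 and Ifit1. Under the same conditions the largest rises were those of Tnfaip6, Aqp1, Anxa8, Mmp19 and Tubb3. In 324 of the 325 genes called lower and 301 of the 302 called higher, the 3 values of one group did not overlap the 3 of the other. The genes were called on these same values, so this separation describes them and is no further evidence for the calls. Against high glucose with LPS, 235 genes (1.84%) were higher and 240 (1.88%) lower in high fructose. The comparisons with control medium and with high glucose share the 3 high fructose libraries, so their values are set side by side and are not independent of each other.

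**Figure D1:**
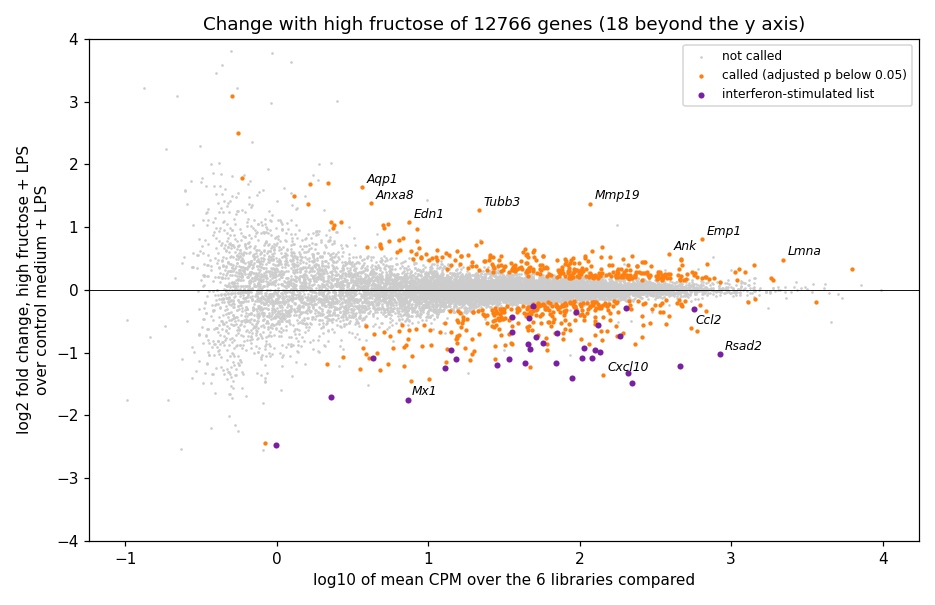
Log2 fold change between high fructose with LPS and control medium with LPS (y axis) against the log10 of mean CPM (counts scaled to library size) over the 6 libraries (x axis) for the 12766 tested genes, of which 18 lie beyond the y axis. Called genes are orange, members of the interferon-stimulated list are purple, and all 35 purple points lie below 0.

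The 6 libraries held between 15453776 and 17015639 counts. Macrophage and microglia genes such as Csf1r, Cd68 and Tyrobp were expressed, but P2ry12, a receptor that marks resting microglia in the brain, had 1 to 6 counts a library, and Aif1 had 2 to 9. Mitochondrially encoded genes took 0.673% ± 0.0840 (SD, n = 3) of counts in control medium with LPS and 0.693% ± 0.115 (SD, n = 3) in high fructose with LPS (exact two-sided permutation p = 0.8). Ribosomal RNA genes took 0.526% ± 0.0641 and 0.367% ± 0.0550, with p = 0.1 by the same exact permutation test, the smallest that 3 against 3 libraries can give. Traces of transcripts of other tissues differed between single libraries. A list of 12 hepatocyte genes summed to 1694 counts in high fructose replicate 1, 1 and 34 in replicates 2 and 3, and 5, 2 and 6 in the control-medium libraries with LPS. A list of 7 fibroblast genes summed to 297, 405 and 13 counts in high fructose and 179, 13 and 9 in control medium with LPS. Their part in the changes below was not tested. A fit without the 3 of these 6 libraries that held over 100 fibroblast counts left 1 high fructose library, so it cannot settle this. Outside the 6, replicates 1 and 3 of control medium without LPS (262 and 211 counts) and high glucose replicate 3 (167) held them too. These stayed in that fit.

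Promoter sequences of the genes that carried the main change are shown because a shared element was found in many of them. The interferon-stimulated response element was searched as GAAANNGAAA on both strands, overlapping matches included, in the 250 bases before each RefSeq start site (build GRCm38.p6). It was present for 17 of the 27 genes (63.0%) that fell at least 2-fold and had a promoter in the table, for 49 of 251 (19.5%) of all genes called lower, for 7 of 241 (2.90%) of those called higher and for 297 of 8984 (3.31%) of all tested protein-coding genes. Of the interferon-stimulated genes listed further on, 27 had a promoter in the table and 15 (55.6%) held the element. A match describes letters in a window and does not show that a factor binds there. Each sequence below runs 5′ to 3′ on the strand of its gene, ends at the base before the start site, and has the matches in capitals, whichever strand they lie on.
Ifit1: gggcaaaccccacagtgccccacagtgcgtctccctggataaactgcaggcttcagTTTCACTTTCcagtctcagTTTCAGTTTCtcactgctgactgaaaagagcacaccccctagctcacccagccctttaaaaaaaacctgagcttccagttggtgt
Ifit3: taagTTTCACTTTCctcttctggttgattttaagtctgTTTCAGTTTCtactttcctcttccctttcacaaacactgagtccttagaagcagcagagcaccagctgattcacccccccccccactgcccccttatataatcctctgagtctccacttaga
Rsad2: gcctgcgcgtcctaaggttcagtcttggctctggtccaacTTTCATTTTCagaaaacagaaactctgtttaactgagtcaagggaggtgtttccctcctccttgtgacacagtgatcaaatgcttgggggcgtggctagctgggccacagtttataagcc
Isg15: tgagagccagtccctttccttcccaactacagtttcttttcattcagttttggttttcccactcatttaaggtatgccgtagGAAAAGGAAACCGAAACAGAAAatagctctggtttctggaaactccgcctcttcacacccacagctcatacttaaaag
Cxcl10: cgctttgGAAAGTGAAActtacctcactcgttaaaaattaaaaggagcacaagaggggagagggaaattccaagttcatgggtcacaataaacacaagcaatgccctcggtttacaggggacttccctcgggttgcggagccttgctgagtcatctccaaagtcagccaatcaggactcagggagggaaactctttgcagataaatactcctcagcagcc
The windows were, for Ifit1, chr19:34640729-34640888 (forward strand), for Ifit3 chr19:34583369-34583528 (forward strand), for Rsad2 chr12:26456453-26456612 (reverse strand), for Isg15 chr4:156200819-156200978 (reverse strand) and for Cxcl10 chr5:92348890-92349109 (reverse strand). In the Ifit1 window the matches began 104 and 85 bases before the start, in Ifit3 at 156 and 122, in Rsad2 at 120 and in Cxcl10 at 213. The Isg15 window held 3 matches that overlap, at 78, 72 and 66 bases before the start. Neither of the 2 windows given for Ifit2 held the element. One form of the NF-kB element, GGGANTTTCC, was present for 3 of 251 genes called lower (1.20%), 2 of 241 called higher (0.830%) and 42 of 8984 tested genes (0.467%). Other forms of that element were not searched, so these shares do not count all NF-kB elements.

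Interferon-stimulated genes formed the largest block of change. Of 36 listed genes 35 could be tested, and all 35 were called lower in high fructose with LPS, beside 2.55% of all tested genes. Their median log2 change was -0.99, with a range from -2.47 (Iigp1) to -0.25 (Irf9), beside a median of -0.00127 over all tested genes. Against high glucose with LPS 33 of the 35 were called lower, with a median of -0.81. Zbp1, a sensor of Z-form nucleic acid, had 0 to 3 counts a library and was not tested. The list was drawn up with earlier results of these libraries known, so its direction is not independent evidence. The median of the 35 genes, taken in each library against the mean of the control-medium libraries with LPS on the log2 scale, was -0.94, -0.99 and -1.003 in high fructose and -0.11, -0.06 and -0.26 in high glucose. Without LPS it was -3.85, -3.95 and -4.01. The 3 high fructose libraries thus lay below every other LPS library and well above the libraries without LPS. The summed level of the 35 genes was 5618, 5745 and 5222 CPM in control medium with LPS and 3065, 3116 and 2860 CPM in high fructose with LPS. With 1 library left out at a time 33 to 35 of the genes were called.

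**Figure D2:**
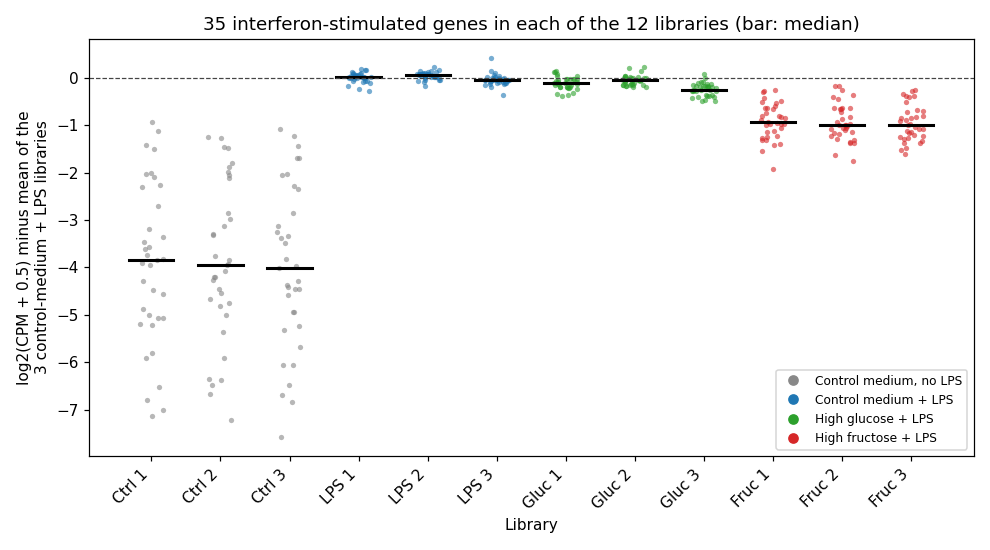
Level of each of the 35 tested interferon-stimulated genes (points) in each of the 12 libraries (x axis), as log2(CPM + 0.5) minus the mean of the 3 control-medium libraries with LPS (y axis), with the median of the 35 as a black bar. The bars of the high fructose libraries lie at -0.94, -0.99 and -1.003, between those of the other LPS libraries and those without LPS.

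The Ifit genes encode antiviral proteins that bind foreign RNA and lie together on chromosome 19. Ifit1 (chr19:34640871-34650009, GRCm38, forward strand) was measured at 320.5, 309 and 258 CPM in the control-medium libraries with LPS and at 121, 131 and 102 CPM in high fructose with LPS. The groups did not overlap, and the change was -1.33 ± 0.10 (log2, SE; adjusted p = 2.07e-07 by edgeR). Ifit2 stood at 328, 337 and 314 CPM in control medium with LPS and at 112, 132 and 106 CPM in high fructose with LPS, which is 35.8% of the control level. Its change was -1.48 ± 0.08, with no overlap between the groups. Ifit3 fell from 130, 139 and 118 CPM to 51.1, 49.2 and 45.3 CPM (-1.40 ± 0.08), which again left the groups apart. The neighbouring Ifit3b (-1.20), Ifit1bl1 (-1.24) and Ifit1bl2 (-1.46) fell too. In high glucose with LPS, Ifit1 was at 255, 286 and 220 CPM, so that 2 of the 3 values lay below the lowest control value but none came near the high fructose values.

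Antiviral effector genes made up a large share of the list. Rsad2 encodes viperin, an enzyme that makes a chain-terminating nucleotide, and its neighbour Cmpk2 on chromosome 12 encodes a mitochondrial nucleotide kinase. Rsad2 was at 1162, 1194 and 1054 CPM in control medium with LPS, at 1236, 1314 and 1062 CPM in high glucose with LPS and at 576, 589 and 509 CPM in high fructose with LPS. The control-medium and high glucose values overlapped, and the high fructose values lay at about the same distance below both. The change was -1.03 ± 0.08 against control medium (adjusted p = 4.51e-07 by edgeR) and -1.11 against high glucose (adjusted p = 4.51e-07). Cmpk2 fell from 672, 672 and 573 CPM to 271, 289 and 265 CPM. Isg15, a ubiquitin-like protein that is joined to other proteins, fell from 147, 141 and 137 CPM to 73.0, 60.0 and 66.5 CPM (-1.09 ± 0.08). Usp18, the protease that removes Isg15 and also restrains the interferon receptor, fell by 0.99 on the log2 scale. The GTPases Mx1 and Mx2, which block viral replication, changed by -1.75 and -1.10. Mx1 was a low-count gene, at 12.9, 10.5 and 10.5 CPM in control medium with LPS and 2.59, 2.98 and 4.47 CPM in high fructose.

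Sensors of viral RNA fell with them. Ddx58 (RIG-I) went from 167, 176 and 159 CPM to 89.2, 91.2 and 78.9 CPM (-0.95 ± 0.07, adjusted p = 1.23e-07 by edgeR), and the groups did not overlap. Ifih1 (MDA5) and Dhx58 (LGP2) changed by -0.84 and -0.75. Of 9 tested genes of the 2-5A synthetase family, whose product activates an RNA-cutting enzyme, 6 were called lower, beside 2.55% of all tested genes. Oasl2 fell from 162, 173 and 157 CPM to 82.6, 76.7 and 72.9 CPM (-1.08), and Oas2, Oas1g and Oas1a changed by -0.45, -0.43 and -0.36, Oasl1 by -0.30 and Oas3 by -0.29. Oas1b (-0.49, adjusted p = 0.0984 by edgeR), Oas1c (-0.29, adjusted p = 0.38) and Oas1d (-0.29, adjusted p = 0.831) were not called. Oas3 was the single called gene of the list with overlapping groups, at 197, 238 and 238 CPM against 165, 198 and 186 CPM.

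Transcription factors of the pathway were also lower. Irf7, which amplifies the interferon response, fell from 139, 149 and 134 CPM to 79.9, 70.5 and 70.6 CPM (-0.93 ± 0.07, adjusted p = 1.56e-07 by edgeR). Stat2, which carries the signal to the nucleus, changed by -0.69. Irf9, its DNA-binding partner, changed by only -0.25 and was the least changed of the 35. Among guanylate-binding proteins and immunity-related GTPases, which attack membranes around intracellular pathogens, the called falls included Gbp7 (-1.23), Gbp3 (-1.17), Gbp2 (-1.10), Igtp (-0.94) and Irgm1 (-0.74), while Gbp5 (-0.74, adjusted p = 0.182 by edgeR) was not called. Gbp9 (-1.27 ± 0.27, adjusted p = 0.00811) had an adjusted p of 0.0505 without replicate 2 of control medium with LPS. Other large falls outside the list were those of Slfn8 (-1.42), a growth-regulating Schlafen gene, and Tnfsf10 (-1.28), which encodes the death ligand TRAIL. Slfn8 was at 15.7, 15.1 and 13.3 CPM in control medium with LPS and at 5.12, 7.07 and 4.27 CPM in high fructose.

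Genes upstream of this block gave no called change against control medium. Of 21 tested members of the Tlr4 pathway list, 0 were called by edgeR's quasi-likelihood test, by DESeq2 or by limma voom, 3 had an unadjusted p below 0.05, and 2 were called in the fit with the replicate number as a block. Tlr4 itself was at 57.9, 57.9 and 64.7 CPM in control medium with LPS and 65.6, 65.9 and 65.0 CPM in high fructose (0.12 ± 0.06, adjusted p = 0.35). The adaptor Ticam1 differed by 0.02 ± 0.08, the kinase Tbk1 by -0.04 ± 0.07 and Irf3 by 0.12 ± 0.10. For the receptor genes Ifnar1 and Ifnar2 the differences were -0.11 ± 0.07 (adjusted p = 0.474) and -0.10 ± 0.07 (adjusted p = 0.581), and for the kinases Jak1 and Tyk2 they were -0.01 ± 0.04 and -0.02 ± 0.06. Against high glucose Tyk2 was called higher (0.30, adjusted p = 0.0111 by edgeR), as was Tlr2 (0.20, adjusted p = 0.0114) of the pathway list. These receptor and kinase genes were chosen after their values were seen. Interferon transcripts themselves were at the limit of detection. Ifnb1 had 1, 1 and 0 counts in control medium with LPS, 3, 2 and 1 in high glucose with LPS and 0, 0 and 0 in high fructose with LPS, where 3 counts over the 3 libraries, the upper limit that a count of 0 allows, correspond to 0.0619 CPM. The other 20 interferon genes looked at had 0 counts in all 12 libraries. These counts were too low to be tested, so whether interferon transcripts differed between the groups was not resolved at this depth, nor at times other than 6 h.

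Among cytokines and chemokines 4 of 18 tested genes were called lower (22.2%, beside 2.55% over all tested genes), and 3 of these 4 are chemokines. Cxcl10, which attracts T cells and is itself interferon-inducible, was at 217, 212 and 183 CPM in control medium with LPS, at 206, 214 and 169 CPM in high glucose with LPS and at 83.5, 81.5 and 73.7 CPM in high fructose with LPS. The high fructose values were thus below the lowest value of either other LPS group. The change was -1.36 ± 0.09 against control medium (adjusted p = 3.39e-08 by edgeR) and -1.30 against high glucose (adjusted p = 1.38e-07). Ccl2, a monocyte attractant, fell from 674, 648 and 654 CPM to 465, 400.3 and 430.4 CPM (-0.61 ± 0.06), and Ccl7, another, from 336, 333 and 303 CPM to 189, 202 and 185 CPM (-0.75 ± 0.06). Both were also called lower than in high glucose, by 0.54 and 0.65 on the log2 scale.

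Tnf, a main inflammatory cytokine, was at 225, 225 and 233 CPM in control medium with LPS, 177, 185 and 199 CPM in high fructose with LPS and 172, 182 and 166 CPM in high glucose with LPS. Its fall in high fructose was -0.29 ± 0.06 (adjusted p = 0.00571 by edgeR), and the difference between the sugars was 0.11 (adjusted p = 0.394), with overlapping groups. Il1b was at 9.62, 10.3 and 7.29 CPM in control medium with LPS and 13.9, 9.67 and 10.6 CPM in high fructose (0.33 ± 0.21, adjusted p = 0.517). The chemokine Ccl5 differed by -0.46 ± 0.14 (adjusted p = 0.085) and was called in the fit with the replicate block (adjusted p = 0.00697) and without high fructose replicate 1. Il6 stood below 1.6 CPM in every library. The median over the 18 genes was -0.19, and with the replicate block 7 genes were called lower.

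The list of inflammatory effectors had 7 of 19 tested genes lower (36.8%, beside 2.55% over all tested genes). Nos2, which makes nitric oxide, was at 17.7, 22.98 and 18.6 CPM in control medium with LPS, at 12.3, 14.6 and 12.7 CPM in high fructose with LPS and at 26.2, 28.0 and 27.2 CPM in high glucose with LPS. The groups did not overlap, and the high fructose and high glucose libraries lay on opposite sides of the control libraries. The fall against control medium was -0.58 ± 0.12 (adjusted p = 0.00669, and 0.0608 without replicate 2 of control medium with LPS, by edgeR), and the difference from high glucose was -1.04 (adjusted p = 4.56e-05). Acod1, which makes the antimicrobial metabolite itaconate, changed only slightly, from 3996, 3908 and 3742 CPM to 3436, 3484 and 3263 CPM (-0.19 ± 0.04, adjusted p = 0.00759). Gpr84, a receptor for medium-chain fatty acids, changed by -0.45. Of its exons 39.5% overlap a gene on the other strand, and since the strand setting of the counting is not given, reads of the pair cannot be told apart. Cd40 (-0.67), Cd86 (-0.26) and Sod2 (-0.17) completed the called members beside Gbp2, which is also in the interferon list. Between 4 and 6 of the effectors were called when 1 library was left out, with 4 without replicate 1 or 2 of control medium with LPS or replicate 2 of high fructose. Ptgs2, which makes prostaglandins, differed by 0.17 ± 0.06 and was not called (adjusted p = 0.124).

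**Figure D3:**
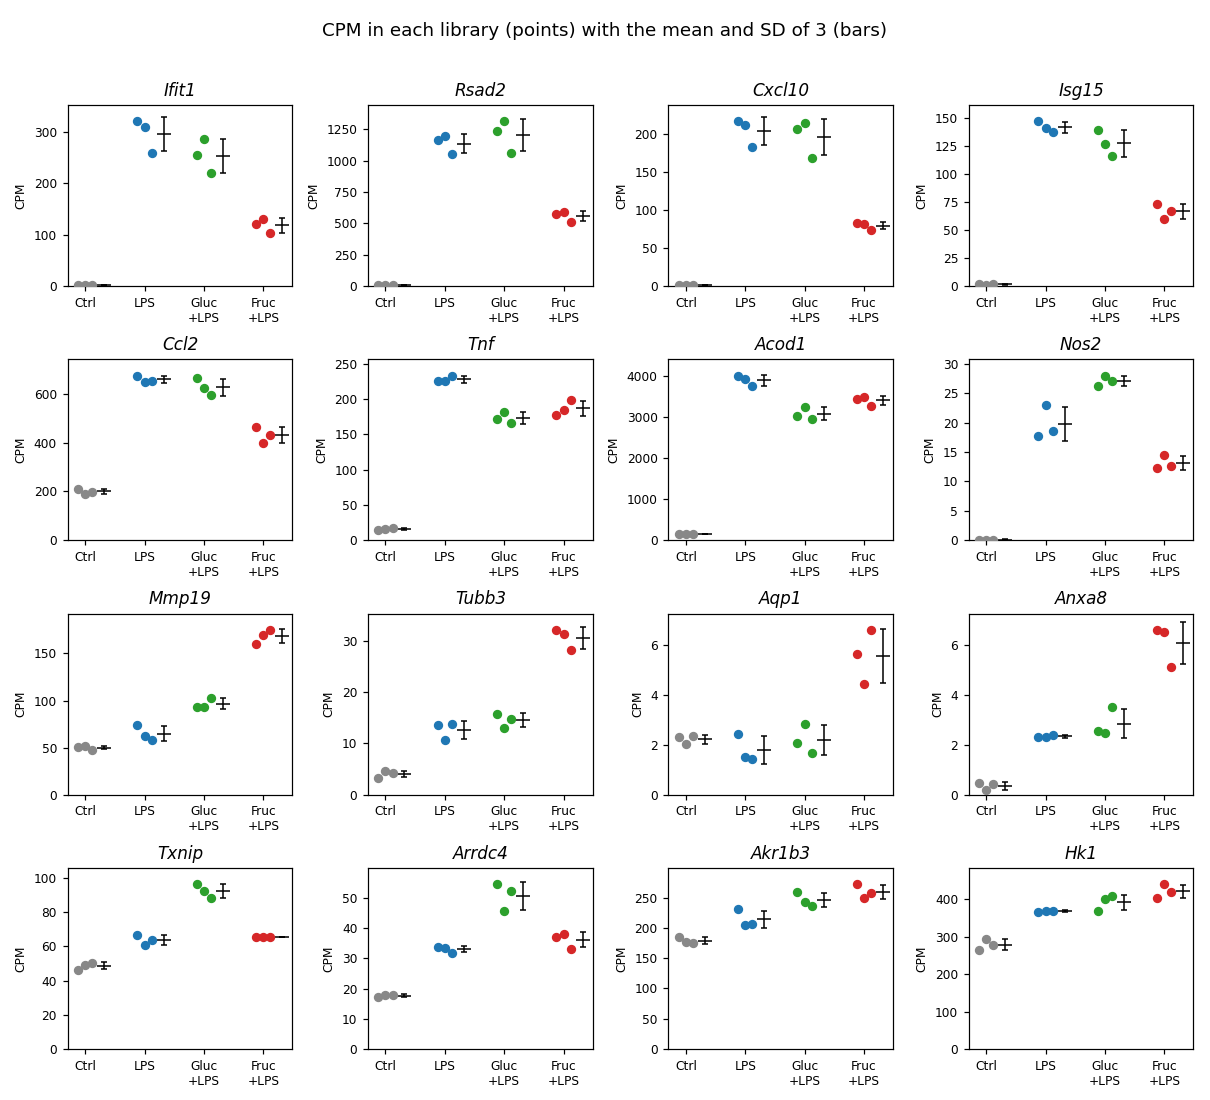
CPM (y axis, linear from 0) of 16 genes in each library (points), with the mean and SD of the 3 libraries of a group beside them (black). Ctrl is control medium without LPS, LPS is control medium with LPS, and Gluc and Fruc are high glucose and high fructose with LPS. Ifit1, Rsad2, Cxcl10 and Isg15 are lower in high fructose than in both other LPS groups, Mmp19, Tubb3, Aqp1 and Anxa8 are higher, and Txnip and Arrdc4 are higher in high glucose only.

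A list of NF-kB feedback genes, which also holds the subunits Nfkb1, Nfkb2, Rel and Relb, did not share the fall against control medium. Of 23 tested genes 4 (17.4%, beside 2.37% over all tested genes) were called higher, and the median was 0.06. Against high glucose 3 were called lower and 0 higher, with a median of 0.08. Socs3, which blocks cytokine receptor signalling, rose from 161, 167 and 158 CPM to 195, 191 and 200.4 CPM (0.27 ± 0.04, adjusted p = 0.00085 by edgeR). In high glucose with LPS it was at 194, 191 and 197 CPM, within the range of high fructose or next to it. Dusp1, a phosphatase of MAP kinases, rose by 0.43 (37.1, 40.0 and 36.8 CPM to 50.8, 51.5 and 51.0 CPM), also with like values in high glucose (51.2, 44.7 and 50.6 CPM). Nfkbiz (0.31, adjusted p = 0.0392) and Traf1 (0.36, adjusted p = 0.0468) rose as well, but each lost its call in 5 of the 6 fits that left out 1 library, every one but that without control-medium replicate 2 for Nfkbiz and high fructose replicate 2 for Traf1. Over these fits 2 or 3 of the 23 genes were called, with 2 without replicate 1 or 3 of either group. Of 14 inflammasome genes 0 were called by edgeR, DESeq2 or limma voom, with 3 at an unadjusted p below 0.05. Nlrp3, the sensor of the main inflammasome, differed by 0.10 ± 0.07 from control medium and by 0.24 from high glucose (adjusted p = 0.0484).

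Part of the genes of antigen processing and presentation were lower. In that list 7 of 17 tested genes were called lower (41.2%, beside 2.55% over all tested genes), and the median was -0.22. The list holds MHC class I and class II genes, chaperones such as Calr and Pdia3, and Cd274, which is among the 7. Its other tested members were not called. Tap1, the peptide transporter into the endoplasmic reticulum, fell from 82.7, 80.1 and 73.6 CPM to 42.4, 48.0 and 39.9 CPM (-0.86 ± 0.09, adjusted p = 6.81e-06 by edgeR), and high glucose values lay between the groups at 65.5, 58.4 and 57.8 CPM. The immunoproteasome subunits Psmb9 (-0.77) and Psmb10 (-0.40), the loading factor Tapbp (-0.30), the trimming enzyme Erap1 (-0.25) and B2m, the light chain of class I molecules (-0.24), fell. Cd274 (PD-L1), an inhibitory ligand for T cells, fell from 74.8, 77.6 and 82.8 CPM to 57.8, 53.8 and 53.6 CPM. For Tapbp and Cd274, 24.9% and 14.1% of the exons overlap a gene on the other strand. Fc receptors, which bind antibody-coated particles, fell among the phagocytosis and lysosome genes. Of that list, 7 of 28 were called lower (25%) and 1 higher (3.57%), beside 2.55% and 2.37% over all tested genes. With 1 library left out 5 to 7 were called lower, and the higher gene, Atp6v1a (0.13), a subunit of the proton pump, was called in 0 of the 6 fits. Fcgr1 went from 36.9, 37.6 and 38.6 CPM to 20.05, 17.5 and 15.1 CPM (-1.10 ± 0.09), while it stayed at 36.1, 37.7 and 38.6 CPM in high glucose. Fcgr4 (-0.78) and Fcgr2b (-0.57) fell against control medium, but neither was called between the sugars (adjusted p = 0.144 and 0.282). Lipa, the lysosomal lipase, changed by -0.23.

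The genes raised by LPS can be set against the difference between the sugars without a shared library. LPS in control medium raised 228 genes (1.79%) at least 4-fold over control medium alone. Of these, 76 (33.3%) were lower and 6 (2.63%) higher in high fructose than in high glucose, with a median of -0.43. Over all tested genes 1.88% were lower and 1.84% higher, with a median of -0.00182. In the fits that left out 1 library 63 to 69 of the 228 genes were lower. The 31 of them in the interferon list had a median of -0.82 with 29 called lower. The 197 outside it had a median of -0.32, with 47 lower and 6 higher. Across the 228 genes the change with LPS and the difference between the sugars had a Pearson r of -0.31, and across all 12766 tested genes -0.18. These are descriptions across genes, which are not independent replicates. This grouping by the LPS response was added after the files were seen.

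**Figure D4:**
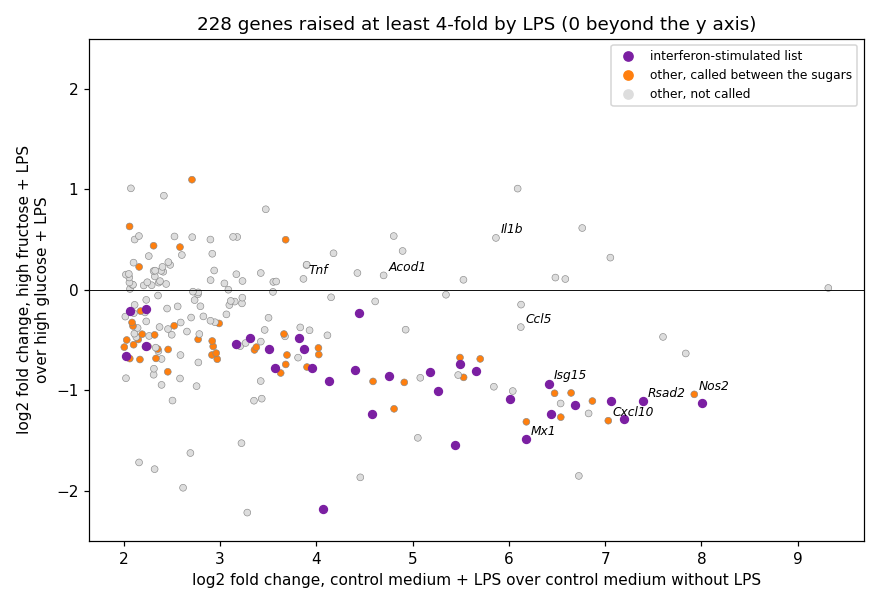
Difference between high fructose with LPS and high glucose with LPS (y axis, log2) against the change with LPS in control medium (x axis, log2) for the 228 genes raised at least 4-fold by LPS. The 31 members of the interferon list (purple) all lie below 0, and of the 197 others 47 are called lower and 6 higher.

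The rises were led by genes of varied function. Mmp19, a secreted matrix metalloprotease, was at 73.9, 62.5 and 58.0 CPM in control medium with LPS, at 93.2, 93.4 and 103 CPM in high glucose with LPS and at 160, 170 and 175 CPM in high fructose with LPS. The 3 groups were separate, in that order. The rise was 1.38 ± 0.07 against control medium (adjusted p = 5.56e-09 by edgeR) and 0.80 against high glucose (adjusted p = 3.56e-06), and 28.3% of its exon length lies opposite genes on the antisense strand. Among 14 matrix proteases and their inhibitors 3 were called higher (21.4%, beside 2.37% over all tested genes), Plaur (0.27), the urokinase receptor, among them. With the replicate block 5 were called. Tubb3, a tubulin known from neurons, was at 13.6, 10.7 and 13.8 CPM in control medium with LPS and at 32.1, 31.4 and 28.2 CPM in high fructose (1.27 ± 0.12), with 15.8, 13.01 and 14.8 CPM in high glucose. It was the called gene among 3 tested neuronal markers. The 7 others of the 10 listed had too few counts, and of these Snap25 had 0 to 12 counts and Rbfox3 0 to 6. Anxa8, a calcium-dependent membrane-binding protein, rose from 2.30, 2.33 and 2.39 CPM to 6.60, 6.51 and 5.13 CPM (1.38 ± 0.23), and Aqp1, a water channel, from 2.42, 1.49 and 1.43 CPM to 5.61, 4.40 and 6.58 CPM (1.63 ± 0.26). Both were also called higher than in high glucose.

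Several other rises were from low counts. Tnfaip6, a secreted hyaluronan-binding protein, was at 0.807, 1.01 and 1.25 CPM in control medium with LPS and 2.28, 3.41 and 4.41 CPM in high fructose (1.70 ± 0.34, adjusted p = 0.00431 by edgeR), but at 3.24, 2.21 and 2.36 CPM in high glucose. Edn1, the precursor of the vasoconstrictor endothelin, showed a like pattern, with 4.66, 4.36 and 5.37 CPM in control medium, 10.1, 11.2 and 9.08 CPM in high fructose and 10.1, 8.90 and 6.50 CPM in high glucose. Neither was called between the sugars. Rfx2 (0.96), a transcription factor of ciliated cells, Olfml3 (1.08), A4galt (1.06), Gprc5a (1.03), Ociad2 (1.03) and the collagen gene Col5a3 (0.98) completed the 12 largest rises. Of these, Gprc5a lost its call without replicate 1 or 2 of control medium with LPS (adjusted p up to 0.065). Col5a3 lost its call in 4 of the 6 leave-one-out fits (without control-medium replicate 1 or 2 or high fructose replicate 2 or 3, adjusted p up to 0.0797), and Ociad2 in 5 (all but that without high fructose replicate 2, up to 0.183).

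Several genes for the uptake and use of fructose were low or little changed. In the fructose and polyol list 2 of 17 tested genes were called higher (11.8%, beside 2.37% over all tested genes). These were Akr1b3, described below, and Akr1b8 (0.20), which had an adjusted p of 0.0536 by edgeR without replicate 2 of control medium with LPS. Changes over the list ran from -0.16 to 3.77, and the largest was not called. Slc2a5, the fructose transporter, had 0 to 2 counts in each of the 12 libraries and Slc2a3 0 to 13, and neither was tested. Khk was at 23.4, 24.6 and 27.5 CPM in control medium with LPS and at 28.9, 26.1 and 28.5 CPM in high fructose (0.15 ± 0.11, adjusted p = 0.587 by edgeR), with overlapping groups. Tkfc, which phosphorylates the glyceraldehyde made from fructose, differed by -0.10 ± 0.11. Apoe was at 5.28, 5.67 and 5.14 CPM in control medium and 28.3, 7.44 and 7.50 CPM in high fructose, where replicate 1 is the library with 1694 counts of hepatocyte genes (1.43 ± 0.44, adjusted p = 0.0795). The part of the hepatocyte transcripts in these values was not tested. In the polyol route, which links glucose and fructose through sorbitol, aldose reductase (Akr1b3) rose from 231, 204 and 207 CPM to 272, 249 and 258 CPM (0.28 ± 0.06, adjusted p = 0.00512), while Sord, the next enzyme, differed by -0.03 ± 0.05. Of the Akr1b3 transcript 97.5% matches another gene at 98% identity or more, so its count is uncertain. High glucose gave 259, 243 and 236 CPM for Akr1b3.

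A pair of targets of the glucose-sensing factor MondoA separated the sugars. Txnip, which limits glucose uptake, was at 66.6, 60.8 and 63.6 CPM in control medium with LPS, 65.4, 65.3 and 65.3 CPM in high fructose with LPS and 96.3, 92.6 and 88.5 CPM in high glucose with LPS. High fructose values lay within those of control medium, and high glucose values above both. The difference of high fructose from control medium was 0.04 ± 0.06 (adjusted p = 0.83 by edgeR) and from high glucose -0.50 (adjusted p = 2.94e-05). Arrdc4, a related arrestin, was at 33.6, 33.6 and 31.9 CPM, 37.2, 38.0 and 33.3 CPM and 54.5, 45.5 and 52.3 CPM in the same order, with differences of 0.13 ± 0.08 (adjusted p = 0.49) and -0.49 (adjusted p = 0.00114). For Txnip 19.4% of the exons overlap a gene on the other strand. The Txnip promoter is shown because it holds a match to the carbohydrate response element, searched as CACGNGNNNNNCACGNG, beginning 85 bases before the start, in capitals in the window chr3:96557837-96557956 (forward strand), 5′ to 3′ on the strand of the gene (GRCm38.p6).
Txnip: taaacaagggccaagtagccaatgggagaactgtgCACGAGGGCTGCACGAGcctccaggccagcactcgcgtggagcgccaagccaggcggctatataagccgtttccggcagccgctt
This element was found for 9 of 8984 tested protein-coding genes, for 0 of the 241 called higher and 0 of the 251 called lower. The window of Arrdc4 held no match. Bhlhe40, a circadian repressor in the same list, rose from 110, 117 and 115 CPM to 160, 172 and 160 CPM (0.52 ± 0.05) and was also above high glucose (0.36). Ogt, which attaches N-acetylglucosamine to proteins, rose from 34.7, 37.5 and 40.0 CPM to 45.4, 57.4 and 59.3 CPM (0.53 ± 0.11, adjusted p = 0.00516), and reached 57.7, 72.7 and 69.5 CPM in high glucose.

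Central carbon metabolism changed little. Of 20 glycolysis genes 1 was called higher (5%, beside 2.37% over all tested genes). It was Hk1 (0.19 ± 0.05, adjusted p = 0.0339 by edgeR), which stayed called in 1 of the 6 leave-one-out fits, that without high fructose replicate 1. With the replicate block 2 genes of the list were called higher. Gapdh, in the same list, ranged from 10.7 to 298 CPM across the LPS libraries. It was at 125, 11.04 and 212 CPM in control medium and 236, 181 and 298 CPM in high fructose (1.04 ± 0.53, adjusted p = 0.369), and 88.0% of its transcript matches other genes at 98% identity or more, so its counts are uncertain. Acly, which makes cytosolic acetyl-CoA, was the called gene among 33 of the citrate cycle and its links (508, 536 and 535 CPM to 627, 661 and 620 CPM, 0.27 ± 0.05). Of 32 nuclear genes of oxidative phosphorylation and 12 mitochondrially encoded genes 0 were called by edgeR, DESeq2 or limma voom, and 0 in either list had an unadjusted p below 0.05. Of 11 pentose phosphate genes 0 were called by any of these tools and 2 had an unadjusted p below 0.05. Slc2a1, the main glucose transporter, was at 250.2, 255 and 250.4 CPM in control medium and 278, 280 and 271 CPM in high fructose (0.13 ± 0.04, adjusted p = 0.0859), a difference that DESeq2 called. Slc2a6, a lysosomal hexose transporter, fell by 0.32 on the log2 scale, with like values in high glucose (-0.01 between the sugars).

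Genes of the response to high osmolarity were among the risers. Of 12 tested genes 4 were called higher (33.3%, beside 2.37% over all tested genes), and the median was 0.28. In every fit that left out 1 library 4 were called. Slc6a12, a betaine transporter, rose from 163, 164 and 168 CPM to 208, 200.3 and 214 CPM (0.33 ± 0.05, adjusted p = 0.000161 by edgeR), and high glucose lay between at 183, 184 and 178 CPM. Slc38a2, an amino acid transporter, rose from 500, 505 and 491 CPM to 580, 645 and 605 CPM, with 532, 598 and 597 CPM in high glucose. Akr1b3 and Aqp1, described above, were the others. The media differ in total sugar, and the part of osmolarity in these values was not tested.

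Markers of microglial state were called in both directions. Over all tested genes 2.37% were called higher and 2.55% lower, and in the disease-associated list below 4.35% and 8.70%. In the homeostatic list the shares were 20% and 30%, of only 10 tested genes. In the homeostatic list 2 of 10 tested genes were called higher (Olfml3 and Selplg) and 3 lower (among them Csf1r by 0.20 and Mef2c by 0.21 on the log2 scale), while 8 of the 18 listed had too few counts. Leaving out 1 library left 1 or 2 of these called in each direction, with 1 lower without replicate 1 or 3 of control medium or replicate 3 of high fructose, and 1 higher in every such fit but that without high fructose replicate 3. Csf1r, the receptor for the growth factor that keeps microglia alive, was at 470, 477 and 469 CPM in control medium with LPS, 406, 424 and 400.4 CPM in high fructose and 383, 384 and 390.5 CPM in high glucose. The values in both raised sugars thus lay below those of control medium. Selplg lost its call in 5 of the 6 leave-one-out fits (adjusted p up to 0.143). Of 23 disease-associated microglia genes, Ank, a pyrophosphate exporter, was higher at 463, 476 and 461 CPM against 312, 323 and 313 CPM (0.56 ± 0.04, adjusted p = 1.49e-07 by edgeR) and also above high glucose (0.39). Cst7 (-0.39) and Igf1 (-0.25) were lower, the latter uncalled in 4 of 6 leave-one-out fits, without replicate 1 or 2 of control medium or 1 or 3 of high fructose (adjusted p up to 0.129). With the replicate block 3 genes of this list were called higher. Clu, an extracellular chaperone linked to Alzheimer's disease, fell from 157, 144 and 147 CPM to 112, 102 and 91.4 CPM (-0.55 ± 0.07) and differed from high glucose by the like amount (-0.56). Trem2, a lipid receptor, differed by 0.06 ± 0.06.

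Immediate early genes, which respond within minutes to growth or stress signals, had 4 of 20 members higher and 1 lower. Those are 20% and 5%, beside 2.37% and 2.55% over all tested genes. Ier3 rose from 183, 177 and 185 CPM to 265, 246 and 280 CPM (0.54 ± 0.06, adjusted p = 2.29e-05 by edgeR). Fosl2 (0.39), Klf4 (0.58) and Nr4a2 (0.57) rose, and Atf3 fell by 0.44. Klf4 was not called without replicate 2 of control medium or replicate 1 or 3 of high fructose (adjusted p up to 0.0899 by edgeR). Without replicate 2 of control medium or replicate 3 of high fructose 2 of the 4 rises were called, Ier3 and Fosl2. The other leave-one-out fits had 3 of the list called higher, and Nr4a2 was not called in those that kept Klf4. Among targets of Nrf2, the factor of the oxidative stress response, Sqstm1 rose from 941, 968 and 960 CPM to 1176, 1181 and 1153 CPM (0.29 ± 0.04) and Srxn1 by 0.21, whereas Nfe2l2, the gene of Nrf2 itself, fell by 0.24, and the median of the 24 genes was -0.07. Srxn1 had an adjusted p of 0.0507 without replicate 2 of control medium, and Nfe2l2 one of up to 0.153 and no call in 5 of 6 leave-one-out fits, all but that without high fructose replicate 2. With the replicate block 3 of the 24 were called lower. In the cell cycle list 4 of 30 genes were lower (Rrm2, Cdc6, Ccnd1 and Mcm4, by 0.25 to 0.37 on the log2 scale). That is 13.3%, beside 2.55% over all tested genes. Of the 30, 28 had a negative sign, and 9 were called lower with the replicate block. Rrm2, a subunit of the enzyme that makes deoxynucleotides, went from 246, 243 and 230 CPM to 202, 194 and 187 CPM. Mcm4 had an adjusted p of 0.0582 without replicate 2 of control medium, and 23.4% of the exons of Ccnd1 overlap a gene on the opposite strand.

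**Figure D5:**
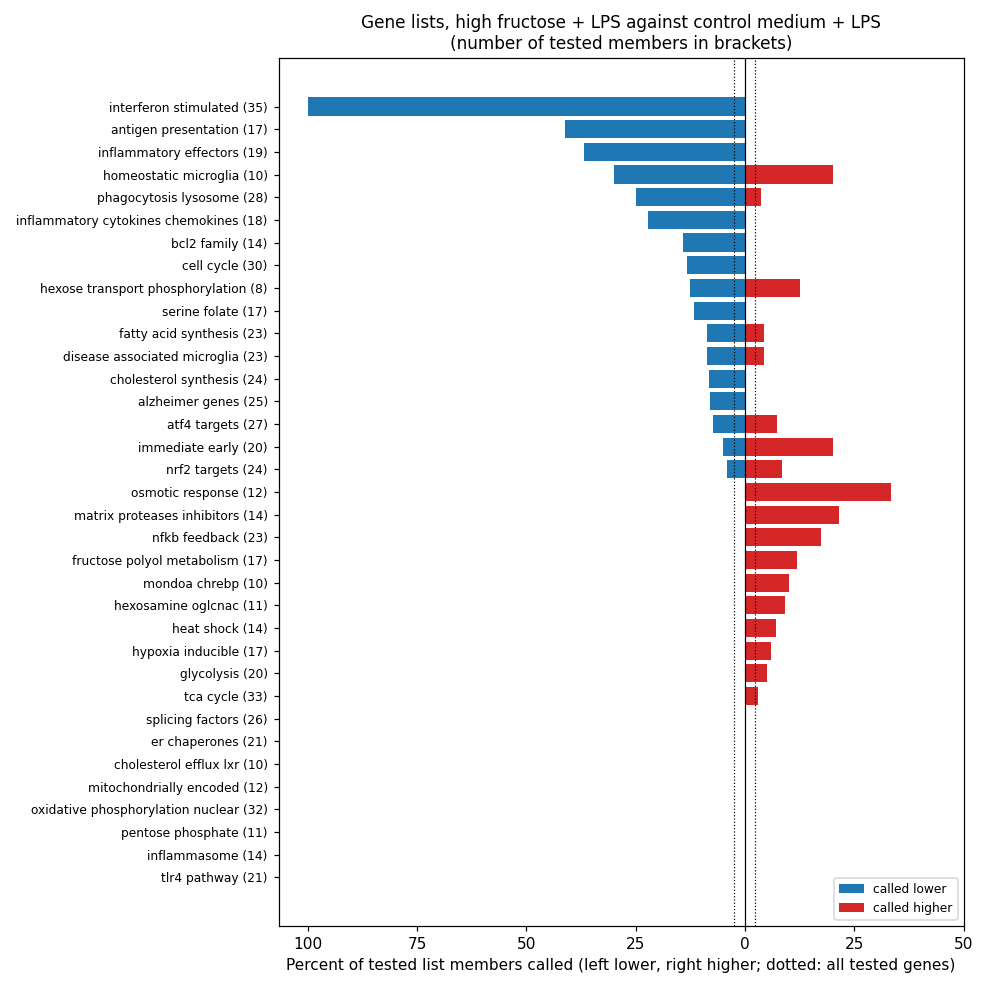
Percent of the tested members of each gene list (rows, number tested in brackets) called lower (blue, to the left) or higher (red, to the right) in high fructose with LPS against control medium with LPS. The dotted lines give 2.55% lower and 2.37% higher, the shares over all tested genes; the interferon-stimulated list reaches 100% lower, and the osmotic list has the longest bar to the right.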

How the data were processed

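RNA sequencing counts of 12 N9 libraries (4 groups of 3) were used. The authors deposited whole-number counts per gene, made, per the submitters' processing notes, with featureCounts 1.5.0-p3 on mm10. FPKM values that the authors deposited beside them were used only as an alternative. The aligner, the annotation release, trimming and the strand setting are each not given in the sources used here.

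Counts were filtered with filterByExpr and fitted in edgeR 4.0.16 (R 4.3.3) with TMM factors and 1 quasi-likelihood model over all 12 libraries. P-values were adjusted by Benjamini-Hochberg over the 12766 tested genes, and genes with an adjusted p below 0.05 are called. CPM values use the TMM factors. Standard errors are of the log2 change. On simulated counts of 12756 genes, 20 of 50 genes changed 1.3-fold, 35 of 50 changed 1.5-fold, 44 of 50 changed 2-fold and 45 of 50 changed 3-fold were recovered, with 6 false calls. All simulated libraries were drawn independently from the means of control medium with LPS, with changes in high fructose alone. They hold no LPS effect and no shared deviation of same-numbered libraries, so the false calls are not an error rate for these data. Alternatives used DESeq2 1.42.0, limma 3.58.1, other scalings and filters, a replicate block and each library left out.

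Same-numbered libraries of high fructose and of control medium with LPS deviated together (r across genes = 0.17, 0.13 and 0.19). For pairs with different numbers r was -0.12 to -0.05. Deviations were taken from the mean of each group of 3, so these values depend on one another. The labels give only numbers and state no pairing, so the main fit has no block and the blocked fit is an alternative.

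The comparison, members and lists were chosen with earlier results of these data known. Named genes are the 12 largest rises and 12 largest falls among called, coding genes whose groups do not overlap and whose mean count reached 50 in 1 of the groups, up to 4 called members of each list with the smallest adjusted p, 34 genes chosen by name (some named genes are not reported here), and the 5 largest rises and falls against high glucose. Other genes named (such as Rsad2, Isg15, Irf7, Usp18 and Cmpk2) were chosen after their values were seen. The hepatocyte and fibroblast lists, the contrast of LPS with no LPS and the fit without 3 libraries with fibroblast transcripts were added after seeing the data. In that fit the lone high fructose library is assumed to vary like the others. Promoters and starts are from RefSeq (GRCm38.p6). A gene is called uncertain where at least 50% of its transcript matches another gene at 98% identity.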

Additional observations from a re-analysis of the deposited data

Results flagged for a closer look

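Each of the 46 genes below differed between high fructose with LPS and high glucose with LPS by the edgeR test of that difference (adjusted p below 0.05), so that their response differed between the sugars. The values are log2 differences, high fructose minus high glucose, with 3 libraries in each group. The 2 changes against control medium share the control libraries, which cancel in this difference.

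Antiviral and interferon-linked genes were lower in high fructose: Ifi44 (-1.55), Mx1 (-1.49), Ifit1bl2 (-1.31), Ifit3 (-1.29), Ifit1bl1 (-1.24), Ifit2 (-1.24), Slfn8 (-1.18), Ifit1 (-1.10), Gbp7 (-1.03), Tnfsf10 (-0.91), Oasl2 (-0.82), Gbp2 (-0.81) and Ddx58 (-0.80). Chemokines and effectors were lower as well: Cxcl10 (-1.30), Nos2 (-1.04), Ccl7 (-0.65) and Ccl2 (-0.54). An Fc receptor gene and genes of the antigen processing and presentation list followed, with Fcgr1 (-1.09), Tap1 (-0.48), Cd274 (-0.32), Psmb10 (-0.28) and Tapbp (-0.22). Among the glucose-responsive genes Txnip (-0.50) and Arrdc4 (-0.49) were lower, and so were Clu (-0.56), Psen2 (-0.23), Rrm2 (-0.26) and Mcm4 (-0.24).

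Higher in high fructose were Aqp1 (1.33), Anxa8 (1.097), Tubb3 (1.07), Atp2b4 (1.05), Mmp19 (0.80) and Rfx2 (0.68). Smaller differences were those of Slc7a11 (0.44), Ndrg1 (0.42), Ank (0.39), Bhlhe40 (0.36), Selplg (0.36), Sqstm1 (0.31), Plaur (0.25), Srxn1 (0.24), Nlrp3 (0.24), Slc6a12 (0.19) and Akr1b8 (0.16). Gapdh differed by 4.23, but its level ranged from 10.7 to 298 CPM over the LPS libraries, with 11.04 CPM in 1 of the 3 libraries of control medium with LPS, and its counts are uncertain since 88.0% of its transcript matches other genes.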

How the results depend on the processing

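The count of 627 genes called against control medium ranged from 451 to 847 over the other settings that kept all libraries, with 692 by DESeq2, 628 by limma voom, 810 with no filter and 847 with the replicate block, which also called 623 of the 627. It ranged from 426 (without replicate 2 of control medium with LPS) to 535 (without high fructose replicate 2) with 1 library left out, and 338 genes were called in all 6 of these fits. Without the 3 libraries with fibroblast transcripts, an alternative chosen after seeing the data that also has fewer libraries, 196 genes were called. Against high glucose the count of 475 became 247 with only the 6 libraries compared and 735 with the replicate block. For that comparison same-numbered libraries did not all deviate together (r = 0.15, 0.19 and -0.03), so the numbers are not taken as a pairing. It ranged from 332 to 385 with 1 library left out. Signs turned only for genes that were not called, when 1 library was left out. Fasn ranged from -0.10 to 0.16 (-0.08 and -0.04 without high fructose replicate 2 and 3), Il6 from -0.22 to 0.85 and Sord from -0.062 to 0.013. The cause was not tested. Of the values of single named genes under the alternatives, 2594 kept their side of the threshold, 183 lost the call and 13 gained one. The 3 other scalings moved the median of all genes by less than 0.01 (log2). The replicate block changed no call of a named gene against control medium except those of Ccl5 and Hmgcs1 (adjusted p = 0.0381 by edgeR). Depth limits low genes: Ifnb1 and Il6 differences could not be resolved.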

Other observations

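Of the genes called against control medium with LPS, 515 were in none of the gene lists, 270 higher and 245 lower. The 12 with the smallest p in each direction were looked at, a rule chosen after the data were seen. Among the risers, Emp1, an epithelial membrane protein, was at 466, 464 and 462 CPM in control medium with LPS, 829, 817 and 793 CPM in high fructose with LPS and 611, 640.1 and 622 CPM in high glucose with LPS, so that the 3 groups were separate (0.81 ± 0.04 against control medium, adjusted p = 5.56e-09 by edgeR). Lmna, which encodes the lamins of the nuclear envelope, rose from 1777, 1908 and 1819 CPM to 2537, 2586 and 2557 CPM (0.48 ± 0.04). Vim, an intermediate filament protein, rose from 5648, 5675 and 5434 CPM to 6978, 7303 and 6791 CPM (0.33 ± 0.03). The potassium channels Kcnn4 and Kcnj2 rose by 0.50 and 0.55 on the log2 scale. Kcnj2 was at 119.9, 133 and 133 CPM in high fructose against 77.5, 89.6 and 92.1 CPM in high glucose. Prrg4 was the exception among the 12, with a rise of 0.51 and a difference from high glucose of 0.03 (adjusted p = 0.824).

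The 12 fallers outside the lists held further genes known to be induced by interferon. Eif2ak2 (PKR), a kinase that stops translation when it binds double-stranded RNA, fell from 179, 194 and 180 CPM to 118, 122 and 113 CPM (-0.65 ± 0.06, adjusted p = 2.38e-06 by edgeR). Parp9 (-0.72), Parp12 (-0.65), Trafd1 (-0.79), Trim30a (-0.86), Lgals9 (-0.86), Slfn5 (-0.68), Phf11b (-1.02) and Phf11d (-0.95) fell too. Cybb, the catalytic subunit of the phagocyte NADPH oxidase, fell from 429, 454 and 429 CPM to 296, 317 and 290 CPM and was at 353, 390 and 376 CPM in high glucose. Mpeg1, a pore-forming protein of phagocytes, fell by 0.47 on the log2 scale and differed from high glucose by -0.14 (adjusted p = 0.111).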
